A study of Homo sapiens with 6 samples.

Results

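Prostate luminal cells line the ducts of the prostate and secrete proteases into semen. Androgen signalling maintains them, acting together with pioneer factors of the forkhead family that open chromatin at their target genes. Genes of this lineage are widely used as tissue markers and as cell-surface targets in prostate cancer. The 8 genes described here are KLK2, KLK3, TMPRSS2, FOLH1, STEAP1, STEAP2, FOXA1 and SPDEF, out of 62700 genes in the deposited count table, and each was matched to its identifier by symbol. They were picked by name with their levels in these libraries, and their difference between the groups, already known. Those values are therefore descriptions, and no test is drawn from them.

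The cells were labelled MKN-45, an established gastric adenocarcinoma line. The 3 libraries labelled NNMT knockdown came from cells transfected with an RNA against NNMT, which encodes nicotinamide N-methyltransferase. The 3 control libraries came from cells given a negative-control RNA according to the sample labels, whereas the design text calls them untouched. Some labels name siRNA and others shRNA, all cells were harvested 48 h after transfection, and both groups were grown in the same medium with serum. Poly(A) RNA was sequenced, and library totals lay between 40558680 and 56067484 counted reads.

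The targeted gene was read as a check on the labels. NNMT had 2, 8 and 14 reads in replicates 1, 2 and 3 labelled NNMT knockdown, against 0, 8 and 12 reads in control replicates 1, 2 and 3. The groups overlapped at the edge of detection, so these counts do not show a knockdown. Control counts this low also leave little room to see one. The first group is called "labelled NNMT knockdown" for that reason. Across all genes, edgeR's quasi-likelihood test (Benjamini-Hochberg adjustment, threshold 0.05) called 0 of 20250 tested genes, or 0%.

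The 8 genes fell into 3 classes of level. SPDEF, FOXA1 and TMPRSS2 lay above 50 CPM (counted reads per 1000000 of the library total) in all 6 libraries, and STEAP1 and STEAP2 lay above 10 CPM in all 6. FOLH1 reached 1 CPM in only 2 libraries, and KLK2 and KLK3 had no read in any library. In bulk RNA, fewer cells carrying a transcript and less of it per cell cannot be told apart.

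**Figure D1:**
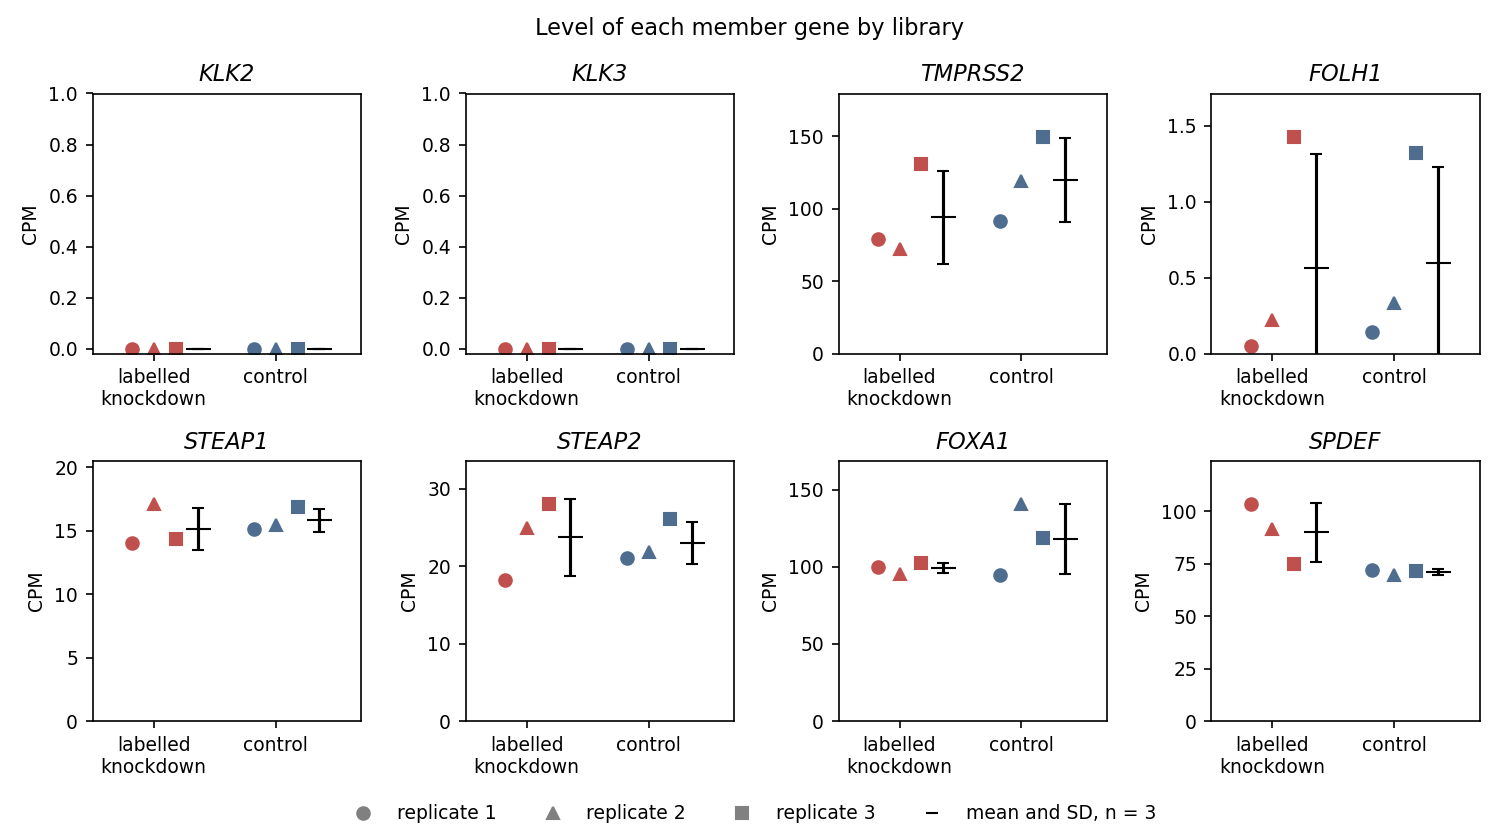
Level of each of the 8 genes in CPM (vertical axes, separate scale per gene) in the 3 libraries labelled NNMT knockdown and the 3 control libraries; symbols mark replicate numbers, and black bars the mean and SD of 3 libraries, cut at 0 for FOLH1. KLK2 and KLK3 lie at 0 throughout, FOLH1 is highest in replicate 3 of both groups, and SPDEF is the gene whose groups do not overlap.

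KLK3 encodes prostate-specific antigen, a serine protease that liquefies semen, and KLK2 encodes its close relative kallikrein 2, which can activate other kallikreins. Both are textbook androgen-induced genes. KLK3 (ENSG00000142515.16) spans bases 50854915 to 50860764 of chromosome 19 (hg38, plus strand), and KLK2 (ENSG00000167751.13) follows it at 50861568 to 50880567. Each had 0 reads in all 3 libraries labelled NNMT knockdown and 0 reads in all 3 control libraries. A limit of 3 reads is used for a count of 0, which is 0.0535 CPM in the deepest library and 0.074 CPM in the shallowest, and it covers counting error only. The limit is wider where both mates of a fragment count. No fold change can be given for either gene.

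The counting left out reads that overlap several genes and reads that align to several places. Of the exon bases, 0% of the 4639 exon bases of KLK3 and 0% of the 6351 exon bases of KLK2 lay within exons of another gene. No stretch of 150 bases, the stated read length, was shared exactly with a transcript of another gene, among 5914 such stretches of KLK3 and 7620 of KLK2 transcripts in GENCODE 29. Genome sequence outside annotated transcripts was not searched.

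The proximal promoters of the pair are shown because androgen signalling is known to act on KLK3 through an element in this window. The sequences are the 250 bases before the RefSeq start in GRCh38.p14, at chr19:50854665-50854914 for KLK3 and chr19:50873189-50873438 for KLK2, plus strand. The KLK2 window lies inside the span counted for KLK2, since the counted gene begins upstream of this RefSeq start. Capitals mark the known androgen response element of KLK3 and the stretch of KLK2 that aligned to it.
KLK3: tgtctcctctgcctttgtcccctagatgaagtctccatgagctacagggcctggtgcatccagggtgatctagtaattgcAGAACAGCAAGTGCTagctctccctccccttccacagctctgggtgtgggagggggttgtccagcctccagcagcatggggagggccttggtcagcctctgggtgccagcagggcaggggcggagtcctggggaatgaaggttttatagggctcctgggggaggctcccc
KLK2: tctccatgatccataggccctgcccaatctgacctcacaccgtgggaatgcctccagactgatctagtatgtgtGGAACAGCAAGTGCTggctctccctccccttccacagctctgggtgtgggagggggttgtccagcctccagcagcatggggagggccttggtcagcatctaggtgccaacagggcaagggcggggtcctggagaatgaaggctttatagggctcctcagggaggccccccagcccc

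The 2 windows were identical at 205 of 259 aligned positions, or 79.2%. The element of 15 bases begins 170 bases before the start of KLK3 and 176 bases before that of KLK2, and the pair differed in it by the substitution A1G, counted from the element's 5′ end with the KLK3 base first. The full palindrome has an arm AGAACA, any 3 bases, and the arm TGTTCT. Against it, read at its 12 fixed positions, the KLK3 element had 2 mismatches and the KLK2 stretch had 3. An exact match to that palindrome occurred in 1 of 35116 RefSeq promoter windows (250 bases before to 50 after a start, both strands), or 0.00285%, and in none of the windows held for the 8 genes. The single arm AGAACA, which lies within the palindrome, was found in 14.8% of all windows, and among the 6 genes with a window only KLK3 held it. Windows were held for KLK2, KLK3, STEAP1, STEAP2, FOXA1 and SPDEF.

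KLK2 and KLK3 lie in a cluster of 15 kallikrein genes, proteases of many epithelia, and most of the cluster was low. Of the other 13 kallikreins, 8 lay below 1 CPM in all libraries and 0 lay above 10 CPM in all libraries. KLK15, on the other side of KLK3, and KLK9 also had 0 reads in all 6 libraries. KLK4, a prostate-enriched member on the other side of KLK2 whose product processes enamel proteins, averaged 1.75 ± 0.825 CPM in libraries labelled NNMT knockdown and 1.16 ± 0.825 CPM in control libraries (SD, n = 3 each).

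The reads of the cluster came mainly from KLK10 and KLK5, which are known from squamous and glandular epithelia. KLK10 had 17.9, 11.9 and 5.09 CPM in replicates 1, 2 and 3 labelled NNMT knockdown, against 24.2, 5.81 and 4.80 CPM in control replicates 1, 2 and 3. KLK5 had 6.39, 2.38 and 0.299 CPM in replicates 1, 2 and 3 labelled NNMT knockdown, against 8.51, 0.436 and 0.161 CPM in control replicates 1, 2 and 3. Replicate 1 was the highest library of each group for both genes, and the groups overlapped. Per length, KLK10 averaged 3.06 RPKM (reads per kilobase of merged exons per 1000000) in libraries labelled NNMT knockdown and 3.06 RPKM in control libraries, the highest of the cluster in each group. Of the 5 kallikreins tested, 0 passed in edgeR's quasi-likelihood test in either direction, and the median log2 fold change was 0.00389, against 0.00334 over all tested genes.

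**Figure D2:**
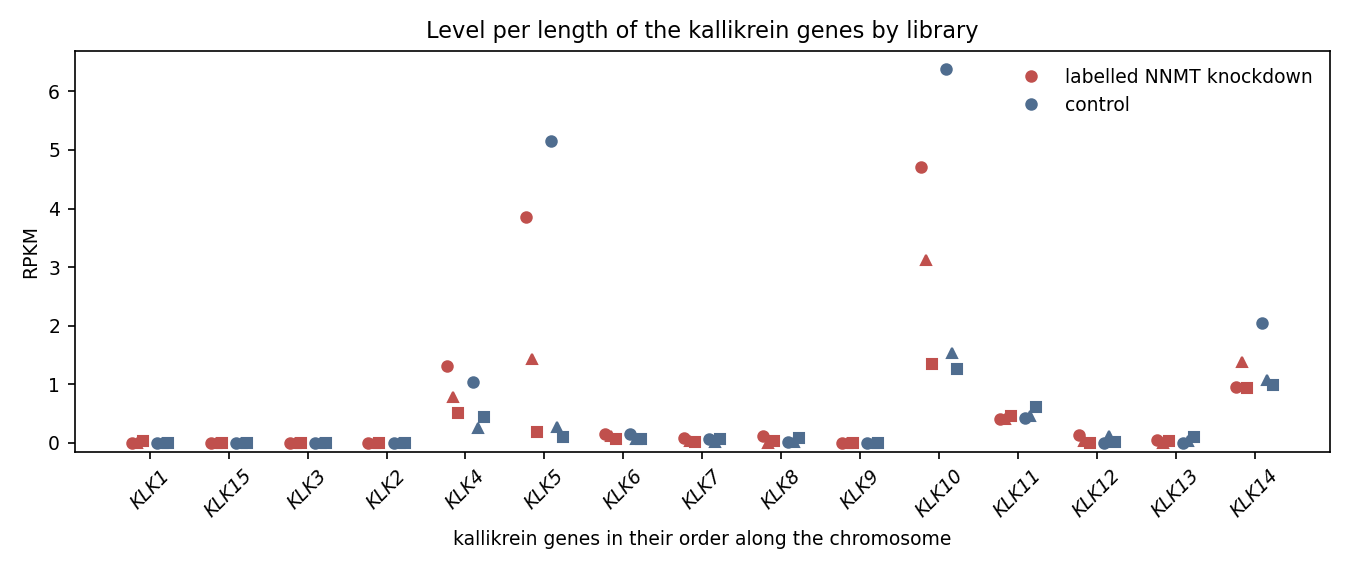
Level per length in RPKM (vertical axis) of the 15 kallikrein genes in their order along chromosome 19 (horizontal axis), with 1 symbol per library and circle, triangle and square for replicates 1, 2 and 3. KLK3 and KLK2 lie at 0 in every library, between KLK15, also at 0, and KLK4, while KLK5 and KLK10 are highest in replicate 1 of each group.

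TMPRSS2 encodes a serine protease anchored in the cell membrane and is best known as an androgen-driven gene whose promoter is fused to ETS genes in many prostate cancers. It lies on the minus strand of chromosome 21 from 41464300 to 41531116. TMPRSS2 (ENSG00000184012.14) had 79.0, 72.3 and 131 CPM in replicates 1, 2 and 3 labelled NNMT knockdown, against 91.7, 119 and 149 CPM in control replicates 1, 2 and 3. Replicate 3 was the highest of each group, and the groups overlapped, since replicate 3 labelled NNMT knockdown exceeded control replicates 1 and 2. The means were 94.1 ± 32.1 CPM in libraries labelled NNMT knockdown and 120 ± 28.9 CPM in control libraries (SD, n = 3 each).

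The fitted log2 fold change of TMPRSS2 was -0.34 (SE 0.282), with an interval of the fold from 0.486 to 1.28. Of its 6589 exon bases, 562, or 8.53%, lay within exons of MX1, an interferon-induced gene on the opposite strand, so reads there were left uncounted. TMPRSS2 varied between libraries more than most expressed genes. Its coefficient of variation over the 6 libraries was 28.8%, against a median of 9.26% over the 11518 genes whose mean reached 5 CPM.

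TMPRSS2 was the highest of the listed membrane-anchored serine proteases per length, at a mean of 16.2 RPKM over the 6 libraries. Of 18 others, 11 lay below 1 CPM in all libraries and 0 lay above 10 CPM in all libraries. The next per length was TMPRSS9, at a mean of 1.48 RPKM, or 6.18 ± 0.835 CPM in libraries labelled NNMT knockdown and 6.70 ± 0.898 CPM in control libraries (SD, n = 3 each). Hepsin, the HPN product and a protease often raised in prostate cancer, had 0 reads in the libraries labelled NNMT knockdown and 2 reads over the control libraries, and was named after its values were seen. The matriptase gene ST14 averaged 2.58 ± 1.33 CPM in libraries labelled NNMT knockdown and 4.58 ± 3.74 CPM in control libraries (SD, n = 3 each). PRSS8, which encodes the membrane-tethered protease prostasin, had the lowest p of the family, with 1.87 ± 0.688 CPM in libraries labelled NNMT knockdown and 4.69 ± 1.72 CPM in control libraries (SD, n = 3 each). Its log2 fold change was -1.32 (SE 0.324), and edgeR gave an adjusted p of 0.9995. Of the 9 relatives tested, 0 passed in either direction, and their median log2 fold change was -0.00118.

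FOLH1 encodes prostate-specific membrane antigen, a surface peptidase that removes glutamate from folate and neuropeptides and is a target of prostate cancer imaging. FOLH1 (ENSG00000086205.18) lies on the minus strand of chromosome 11 from 49145092 to 49208638. It had 2, 10 and 62 reads in replicates 1, 2 and 3 labelled NNMT knockdown, against 6, 16 and 74 reads in control replicates 1, 2 and 3. In CPM, the replicates labelled NNMT knockdown had 0.0493, 0.220 and 1.43, against 0.144, 0.332 and 1.32 in the control replicates. Replicate 3 was the highest of each group, and the groups overlapped over nearly their whole range. The highest library stood 28.9-fold above the lowest.

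An exact 95% Poisson interval for the 2 reads of replicate 1 labelled NNMT knockdown runs from 0.242 to 7.23 reads. For the 62 reads of replicate 3 labelled NNMT knockdown it runs from 47.5 to 79.5 reads. These libraries were the lowest and highest of that group, and no test is drawn from the 2 intervals. The intervals cover counting error only. The counting command did not join mates, so both mates of a fragment can count and these intervals are too narrow. The fitted log2 fold change of FOLH1 between the groups was -0.09 (SE 1.19), with an interval of the fold from 0.126 to 6.94. It was -2.12 without replicate 3 labelled NNMT knockdown and 1.22 without control replicate 3, so its direction rested on single libraries.

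Part of FOLH1 cannot be counted uniquely. Of 4590 stretches of 150 bases in its transcripts, 320, or 6.97%, occur exactly in transcripts of FOLH1B, a near copy of the gene. FOLH1B itself had 0 reads in all 6 libraries, so both values are uncertain. The secreted trefoil factor gene TFF3 of the intestinal list also had its highest libraries in replicate 3 of each group, with 2.71, 3.90 and 15.9 CPM in replicates 1, 2 and 3 labelled NNMT knockdown, against 0.481, 4.73 and 15.8 CPM in control replicates 1, 2 and 3. TFF3 was set beside FOLH1 after its values were seen, and the list did not share the pattern throughout. MUC2 of that list had 18.25, 16.67 and 16.73 CPM in replicates 1, 2 and 3 labelled NNMT knockdown. What sets replicate 3 apart for FOLH1 and TFF3 was not tested. Of the 4 relatives of FOLH1, NAALADL2 was the highest, with 17.7 ± 4.13 CPM in libraries labelled NNMT knockdown and 17.7 ± 2.99 CPM in control libraries (SD, n = 3 each).

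STEAP1 and STEAP2 encode membrane antigens with several transmembrane spans, named for their discovery in prostate epithelium. STEAP2 reduces iron and copper, and STEAP1 is a target of antibodies in prostate cancer. The genes are neighbours on the plus strand of chromosome 7, STEAP1 (ENSG00000164647.9) from 90154456 to 90164829 and STEAP2 (ENSG00000157214.14) from 90167590 to 90238137. STEAP1 had 14, 17.1 and 14.4 CPM in replicates 1, 2 and 3 labelled NNMT knockdown, against 15.1, 15.5 and 16.8 CPM in control replicates 1, 2 and 3. It was the steadiest of the 6 detected genes, with a coefficient of variation of 8.13% over the 6 libraries.

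STEAP2 had 18.2, 24.9 and 28.0 CPM in replicates 1, 2 and 3 labelled NNMT knockdown, against 21.1, 21.8 and 26.0 CPM in control replicates 1, 2 and 3. The groups overlapped for both genes. The fitted log2 fold change was -0.06 (SE 0.118) for STEAP1, with an interval of the fold from 0.801 to 1.15. For STEAP2 it was 0.05 (SE 0.147), with an interval of the fold from 0.825 to 1.30. Per length STEAP1 was the higher of the neighbours, with 9.81 ± 1.08 RPKM in libraries labelled NNMT knockdown and 10.2 ± 0.587 RPKM in control libraries, where STEAP2 had 2.72 ± 0.570 RPKM and 2.63 ± 0.307 RPKM in the same groups (SD, n = 3 each).

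The STEAP family did not share one level. STEAP3, which reduces iron in endosomes of many tissues, averaged 69.9 ± 21.7 CPM in libraries labelled NNMT knockdown and 66.8 ± 8.85 CPM in control libraries (SD, n = 3 each). STEAP4, which is induced by androgen in prostate cells, averaged 0.391 ± 0.230 CPM in libraries labelled NNMT knockdown and 0.294 ± 0.212 CPM in control libraries. STEAP1B, a relative that shares 0.123% of the 150-base stretches of STEAP1, averaged 0.137 ± 0.0552 CPM and 0.202 ± 0.175 CPM in the same groups. Of the 2 tested relatives, 0 passed in edgeR's quasi-likelihood test.

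FOXA1 encodes the pioneer factor that opens chromatin for hormone receptors in prostate and breast. FOXA1 (ENSG00000129514.8) lies on the minus strand of chromosome 14 from 37589552 to 37596059, and 16 of its 4414 exon bases lie within exons of TTC6. It had 99.8, 95.5 and 102 CPM in replicates 1, 2 and 3 labelled NNMT knockdown, against 94.7, 140 and 119 CPM in control replicates 1, 2 and 3. The libraries labelled NNMT knockdown lay close together, and control replicate 1 fell just below them, so the groups overlapped. The fitted log2 fold change was -0.25 (SE 0.125), with an interval of the fold from 0.696 to 1.02. Without control replicate 2 it was -0.101.

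SPDEF encodes an ETS factor of prostate luminal cells, breast and goblet cells. SPDEF (ENSG00000124664.11) lies on the minus strand of chromosome 6 from 34537802 to 34556333. It had 103, 91.4 and 74.9 CPM in replicates 1, 2 and 3 labelled NNMT knockdown, against 72.1, 69.5 and 71.3 CPM in control replicates 1, 2 and 3. Every library labelled NNMT knockdown lay above every control library, although replicate 3 labelled NNMT knockdown stood only just above them. The fitted log2 fold change was 0.34 (SE 0.114), with an interval of the fold from 1.07 to 1.51, and edgeR gave an adjusted p of 0.9995 over all genes. SPDEF was picked with this difference known, so neither the interval nor the p is read as a test of it. Its log2 fold change was 0.215 without replicate 1 labelled NNMT knockdown and 0.46 without replicate 3 labelled NNMT knockdown.

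Of the 8 genes, 6 passed the filter on low counts, edgeR called 0 of the 6, and the groups of 1 of the 6 did not overlap. Over all tested genes the groups did not overlap for 9.17%. Since the genes were chosen with these values known, nothing is read from the counts. The median log2 fold change of the 6 tested genes was -0.0772, against 0.00334 over all tested genes.

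**Figure D3:**
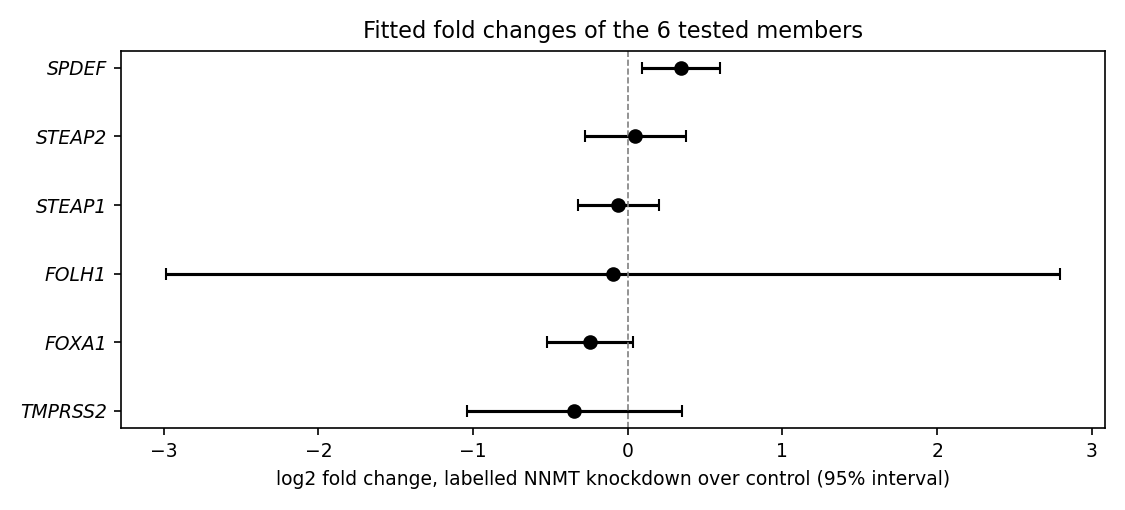
Fitted log2 fold change (horizontal axis) of libraries labelled NNMT knockdown over control libraries for the 6 tested genes, with bars for the 95% interval from the fit across all genes. The intervals of TMPRSS2, FOXA1, FOLH1, STEAP1 and STEAP2 include 0, that of SPDEF runs from 0.09 to 0.60 without adjustment for the number of genes, and that of FOLH1 is the widest. The genes were chosen with these values known, so the intervals are descriptions and no test.

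The promoters of the pair of transcription factor genes are shown for the forkhead letters they hold, since FOXA1 is itself a forkhead factor. These are the 250 bases before the RefSeq start in GRCh38.p14, minus strand, at chr14:37595250-37595499 for FOXA1 and chr6:34556330-34556579 for SPDEF. The FOXA1 window lies inside the span counted for FOXA1, since the counted gene begins upstream of this RefSeq start. Capitals mark a match on either strand to the letters TGTTTAC, to the variant TATTTAC, or to the variant TGTTTGC.
FOXA1: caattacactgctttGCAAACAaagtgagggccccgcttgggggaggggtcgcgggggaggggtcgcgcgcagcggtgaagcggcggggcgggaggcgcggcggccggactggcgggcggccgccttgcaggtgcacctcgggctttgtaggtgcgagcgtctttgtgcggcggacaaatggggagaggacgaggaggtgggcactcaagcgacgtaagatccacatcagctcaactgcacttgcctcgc
SPDEF: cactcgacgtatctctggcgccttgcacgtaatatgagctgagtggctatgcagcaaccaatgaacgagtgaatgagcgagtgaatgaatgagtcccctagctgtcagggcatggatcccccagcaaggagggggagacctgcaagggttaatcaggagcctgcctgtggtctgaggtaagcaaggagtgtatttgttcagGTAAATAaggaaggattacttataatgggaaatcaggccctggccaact

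Such letters occur in 9.57% of all 35116 windows, and besides FOXA1 and SPDEF the second of 2 windows of STEAP2 held them. The windows of KLK2, KLK3 and STEAP1 did not. The letters CCGGAT, a core bound by SPDEF and related ETS factors, were in none of the members' windows and in 7.12% of all windows. A match describes letters only and is no evidence of binding.

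The order by level per length was SPDEF, FOXA1, TMPRSS2, STEAP1, STEAP2, FOLH1, and last KLK2 and KLK3 at 0. SPDEF lay between 36.3 and 53.9 RPKM over the 6 libraries and FOXA1 between 21.5 and 31.8 RPKM, so their ranges did not meet. TMPRSS2 ran from 10.98 to 22.7 RPKM and overlapped both FOXA1 above it and STEAP1, at 9.07 to 11.1 RPKM, below it. STEAP2 lay between 2.09 and 3.21 RPKM and FOLH1 between 0.00924 and 0.267 RPKM. Among tested genes, whose median was 2.42 RPKM, 96.1% had a mean level below SPDEF, 92% below FOXA1, 86.8% below TMPRSS2 and 5.68% below FOLH1.

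FOXA1 and SPDEF had abundant relatives of their own families. FOXA2, a paralog of endoderm and of neuroendocrine prostate cancer, averaged 95.4 ± 9.07 CPM in libraries labelled NNMT knockdown and 85.1 ± 3.06 CPM in control libraries (SD, n = 3 each), whereas FOXA3 had 2 reads in all. Per length FOXA2 averaged 33.2 RPKM over the 6 libraries, between SPDEF and FOXA1. Of 26 other ETS genes, 16 lay above 10 CPM in all libraries. ETS1, a factor of invasive and lymphoid cells, averaged 378 ± 27.4 CPM in libraries labelled NNMT knockdown and 412 ± 35.2 CPM in control libraries. ETV4, one of the ETS genes fused to TMPRSS2 in prostate cancer, averaged 153 ± 10.6 and 158 ± 5.72 CPM in the same groups.

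ERG, the most frequent fusion partner of TMPRSS2, averaged 0.0622 ± 0.0542 CPM in libraries labelled NNMT knockdown and 0.0757 ± 0.0724 CPM in control libraries (SD, n = 3 each). ERG was named after its values were seen, and fusions cannot be read from gene counts. Of 20 other ETS genes tested, 0 passed in edgeR's quasi-likelihood test in either direction, with 8 above and 12 below 0 and a median log2 fold change of -0.0493. The lowest p among them was that of FLI1, with 5.41 ± 0.998 CPM in libraries labelled NNMT knockdown and 3.22 ± 1.66 CPM in control libraries.

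Other genes of the prostate luminal lineage ranged from absent to abundant. Of 33 further genes of that list, 10 lay above 10 CPM and 15 below 1 CPM in all libraries. HOXB13, a homeobox factor of prostate and distal gut, was the highest, with 488 ± 69.5 CPM in libraries labelled NNMT knockdown and 507 ± 32.1 CPM in control libraries (SD, n = 3 each). GOLM1, which encodes a Golgi membrane protein raised in prostate cancer, averaged 182 ± 22.1 and 228 ± 64.5 CPM in the same groups. The luminal keratin gene KRT8 averaged 180 ± 13.1 and 180 ± 5.03 CPM.

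Genes for secreted products on that list lay at both ends of the range. GDF15, which encodes a secreted stress factor, averaged 167 ± 32.0 CPM in libraries labelled NNMT knockdown and 183 ± 49.1 CPM in control libraries (SD, n = 3 each). MSMB, which encodes a major seminal protein, the noncoding marker PCA3 and the olfactory receptor gene OR51E1 had 0 reads in all 6 libraries. ACP3, the prostatic acid phosphatase gene, averaged 1.02 ± 0.117 CPM in libraries labelled NNMT knockdown and 1.53 ± 0.503 CPM in control libraries (SD, n = 3 each). TGM4, which encodes the prostate transglutaminase, averaged 1.11 ± 0.285 and 1.92 ± 0.628 CPM in the same groups. SLC45A3, which encodes prostein, was present at 17.97 ± 2.73 CPM in libraries labelled NNMT knockdown and 19.0 ± 0.854 CPM in control libraries. MSMB, PCA3, OR51E1 and SLC45A3 were named after their values were seen. Of 22 tested genes of the list, 0 passed in edgeR's quasi-likelihood test, with 10 above and 12 below 0 and a median log2 fold change of -0.028.

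Androgen-response genes outside the 8 were mostly present, and many of them serve general metabolism. Of 65, 48 lay above 10 CPM and 5 below 1 CPM in all libraries. The median of the mean levels of all tested genes was 9.57 CPM, and the counts are not read as androgen activity. HPGD, which inactivates prostaglandins, averaged 1230 ± 117 CPM in libraries labelled NNMT knockdown and 1284 ± 94.2 CPM in control libraries (SD, n = 3 each). SLC38A2, an amino acid transporter gene, averaged 979 ± 97.5 and 1234 ± 154 CPM in the same groups. It had the lowest p of the list, with a log2 fold change of -0.33 (SE 0.119), and its adjusted p in edgeR was 0.9995. FKBP5, a chaperone gene induced by androgen and by glucocorticoid and named after its values were seen, averaged 9.80 ± 4.42 and 9.35 ± 1.26 CPM. Of 61 tested genes, 0 passed, with 28 above and 33 below 0 and a median log2 fold change of -0.00608.

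Genes for steroid receptors, their partners and their regulators were mostly abundant, but several receptor genes were low. Of 33 such genes, 27 lay above 10 CPM in all libraries, where the median of the mean levels of all tested genes was 9.57 CPM. The chaperone gene HSP90AB1 averaged 1234 ± 92.1 CPM in libraries labelled NNMT knockdown and 1340 ± 82.4 CPM in control libraries (SD, n = 3 each). The glucocorticoid receptor gene NR3C1, named after its values were seen, averaged 60.6 ± 7.20 and 66.4 ± 10.5 CPM in the same groups. The oestrogen receptor gene ESR1 was low, with 0.312 ± 0.136 and 0.797 ± 0.334 CPM. The receptor genes PGR and ESR2, named after their values were seen, averaged 0.0159 and 5.35 CPM over the 6 libraries. Of 32 tested genes, 0 passed in edgeR's quasi-likelihood test, with 9 above and 23 below 0. Their median log2 fold change was -0.0631, against 0.00334 over all tested genes. The list was chosen with earlier results of these data known, so nothing is read from this split.

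Several enzymes of early androgen synthesis were not detected, while several that convert steroids were. CYP17A1, HSD3B1 and HSD3B2, which act on early precursors, had 0 reads in all 6 libraries, as did SULT2A1. They were named after their values were seen. SRD5A1, a steroid reductase that makes dihydrotestosterone, averaged 25.2 ± 0.969 CPM in libraries labelled NNMT knockdown and 25.9 ± 1.45 CPM in control libraries (SD, n = 3 each). AKR1C2, which inactivates dihydrotestosterone, averaged 0.262 ± 0.112 and 1.51 ± 0.895 CPM in the same groups, and its close paralog AKR1C1 averaged 3.36 ± 0.815 and 8.02 ± 2.58 CPM. The reads of these paralogs can be split or lost in counting. For both, edgeR gave an adjusted p of 0.9995, and it called 0 of 13 tested genes of this list. DESeq2 called both lower, 2 of the 8 genes it called among 19430, or 0.0412%. Without the filter on low counts, edgeR called 72 of the 37861 genes with reads, or 0.19%. These included 0 of the 6 prostate genes with reads, while KLK2 and KLK3 could not be tested. They also included 4 genes on the other lists, namely AKR1C1, AKR1C2, PRSS8 and S100A2. Unlike the others, S100A2 of the basal list was higher in libraries labelled NNMT knockdown. It averaged 233 ± 53.2 CPM there and 165 ± 17.2 CPM in control libraries (SD, n = 3 each). The other lists hold 309 genes, some of which had no read and could not be tested.

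**Figure D4:**
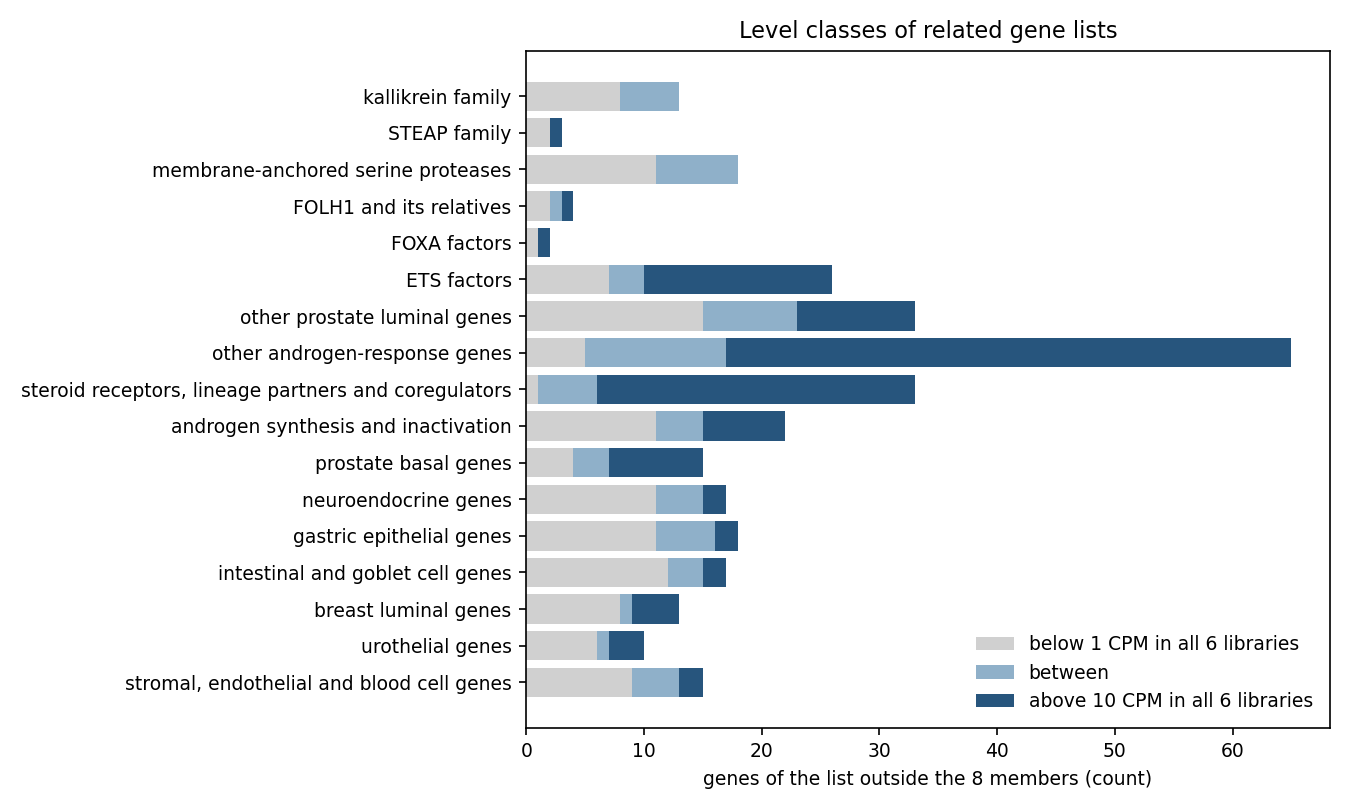
Number of genes (horizontal axis) of each of 17 gene lists, outside the 8 described genes, that lay below 1 CPM in all 6 libraries, above 10 CPM in all 6, or between. Androgen-response genes, and the list of steroid receptors with their partners, were mostly above 10 CPM, with 48 of 65 and 27 of 33. The kallikreins and membrane-anchored proteases had none there. For scale, the median of the mean levels of all tested genes was 9.57 CPM.

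Markers of other cell types place these levels. Prostate basal genes were mixed. The integrin gene ITGB4 averaged 973 ± 51.0 CPM in libraries labelled NNMT knockdown and 902 ± 160 CPM in control libraries, and the keratin gene KRT15 averaged 540 ± 149 and 583 ± 109 CPM in the same groups (SD, n = 3 each). The defining basal keratin genes KRT5, KRT14 and KRT17 had 6, 16 and 15 reads over all libraries. Of 17 neuroendocrine genes, 11 lay below 1 CPM in all libraries, CHGA and CHGB at 0 reads among them. The neuronal enolase gene ENO2, highest of that list in CPM, averaged 262 ± 57.8 CPM in libraries labelled NNMT knockdown and 268 ± 24.1 CPM in control libraries. Of 18 gastric genes, 11 lay below 1 CPM in all libraries and 2 above 10 CPM in all. The gastric mucin gene MUC6 averaged 50.3 ± 15.5 CPM in libraries labelled NNMT knockdown and 51.5 ± 29.8 CPM in control libraries, and the calpain gene CAPN8 averaged 22.8 ± 5.89 and 27.8 ± 12.5 CPM in the same groups. The mucin gene MUC5AC averaged 16.8 ± 22.2 CPM in libraries labelled NNMT knockdown, with 42.5 CPM in replicate 2, and 6.02 ± 2.67 CPM in control libraries. The gastric list genes GKN1, LIPF, CTSE and PGA3 had 0 reads. The intestinal factor gene CDX2 had 0 reads too, while AGR2, a folding factor gene of mucus-secreting and prostate cells, averaged 410 ± 108 and 412 ± 128 CPM in the same groups. Of 13 breast luminal genes, 8 lay below 1 CPM in all libraries and 4 above 10 CPM in all. Of 10 urothelial genes, 6 lay below 1 CPM in all libraries and 3 above 10 CPM in all. Of the tested genes in these lists (11 basal, 6 neuroendocrine, 7 gastric, 6 intestinal, 5 breast luminal, 5 urothelial and 9 of stroma and blood), edgeR called 0. The defining genes of these types were named after their values were seen.

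Summed over their list, gastric genes ranged from 78.8 to 139 CPM in libraries labelled NNMT knockdown and from 69.6 to 154 CPM in control libraries, and basal genes from 3515 to 3954 CPM and from 3476 to 3625 CPM. The other prostate luminal genes summed to between 1356 and 1519 CPM in libraries labelled NNMT knockdown and between 1398 and 1667 CPM in control libraries. The 8 genes themselves summed to between 301 and 352 CPM in libraries labelled NNMT knockdown and between 295 and 384 CPM in control libraries. Intestinal genes summed to 331 to 586 CPM in libraries labelled NNMT knockdown and 362 to 657 CPM in control libraries. Breast luminal genes summed to 691 to 746 CPM and 648 to 687 CPM in the same groups. The lists hold unlike numbers of genes and single genes weigh heavily, so these sums do not rank cell types. Of stromal, endothelial and blood cell genes, 9 of 15 lay below 1 CPM in all libraries, and the T cell and B cell genes CD3E and MS4A1 had 0 reads. The collagen gene COL1A1 averaged 370 ± 130 CPM in libraries labelled NNMT knockdown and 275 ± 41.4 CPM in control libraries, and the endothelial and platelet gene PECAM1 averaged 23.0 ± 4.61 and 23.3 ± 2.54 CPM in the same groups. The gastric list was thus mixed in cells labelled gastric, with some markers present and others at 0. Of the 8 genes, the transcription factors, TMPRSS2 and the STEAP antigens were present, whereas the secreted kallikreins were at 0 and FOLH1 was near 0.

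For each tested gene, the genes whose log2 CPM ran most alike over the 6 libraries were named, among 11517 others whose mean reached 5 CPM (11518 for FOLH1). TMPRSS2 ran most like ICAM1, with a Pearson r of 0.996, and 75 genes had r above 0.95. FOXA1 ran most like SERP1 and SQSTM1 (both r = 0.988), and SPDEF most like DPP9 (r = 0.987). STEAP1 ran most like RANBP2 (r = 0.991) and STEAP2 most like CNNM3 (r = 0.993). FOLH1 ran most like ERLEC1 (r = 0.998). With 6 libraries and this many genes, such values are reached readily, and they describe these libraries only.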

How the data were processed

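RNA from 6 cultures, 3 labelled NNMT knockdown and 3 control, was sequenced as paired reads of 150 bases, per the labels' protocols. The authors deposited raw read counts per gene, made with featureCounts 2.0.6 on hg38 with GENCODE 44, per the file headers, with the aligner not given in the sources used here. Its command set no strand option, dropped pairs with an unaligned mate, and did not join mates into fragments. Of counts from 2 to 10, 73.4% to 76.7% were even, as when both mates of a fragment count. Library totals were 40558680 to 56067484 reads. The labels call the samples independent biological replicates.

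All 62700 genes had a symbol. CPM used library totals, and RPKM also the deposited merged exon length. Genes were filtered with filterByExpr, scaled with TMM and tested with edgeR 4.0.16 (R 4.3.3) with group as the sole term; the test was checked on simulated data. Deviations of same-numbered replicates correlated at 0.0542, -0.0869 and 0.2001 for numbers 1, 2 and 3, not all above 0.1, so no block was used. DESeq2 1.42.0, limma 3.58.1, other scalings and filters, halved counts, a replicate block and leaving out each library were alternatives. Promoter windows came from RefSeq (GRCh38.p14), with none held for TMPRSS2 or FOLH1, and windows were aligned with Biopython 1.88.

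The genes and the 17 further lists were chosen with earlier results of these data known. Other genes named by the choosing rule are not reported here. From each list, up to 4 non-members with the highest mean CPM and 2 with the lowest p could be named, together with NNMT, family relatives and the 3 genes most alike to each tested member. Where a symbol had 2 identifiers, the one in GENCODE 29 was used.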

Additional observations from a re-analysis of the deposited data

How the results depend on the processing

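The count of called genes was 0 under other scalings, the stricter filter, limma-voom, halved counts and the replicate block. It was 72 without the filter on low counts and 8 with DESeq2, and from 0 to 1 when single libraries were left out, the 1 call coming without control replicate 3. Among the list genes outside the 8, it was 4 without the filter and 2 with DESeq2, and 0 otherwise, including under the replicate block. The cause was not tested. None of the 6 tested genes of the 8 was called under any of these settings. Nothing is read from this, since the genes were chosen with their values known. KLK2 and KLK3, with no read, could not be tested under any setting. The log2 fold change of SPDEF stayed between 0.215 and 0.46, that of FOXA1 between -0.374 and -0.101, that of TMPRSS2 between -0.658 and -0.169 and that of STEAP1 between -0.144 and -0.0218, whereas STEAP2 ranged from -0.0891 to 0.193 and FOLH1 from -2.12 to 1.22. FOLH1 could not be fitted with the stricter filter or with halved counts, which left it out. With the replicate block the values were 0.331 for SPDEF, -0.229 for FOXA1, -0.37 for TMPRSS2 and -0.395 for FOLH1. The numbers name replicates and are not shown to pair them. Leaving mitochondrial reads out of the total raised every detected gene of the 8 in both groups. FOXA1 rose from 99.2 to 104 CPM in libraries labelled NNMT knockdown and from 118 to 124 CPM in control libraries. SPDEF rose from 89.8 to 93.9 CPM and from 71 to 74.3 CPM in the same groups. The rise exceeded the group's SD only for FOXA1 in libraries labelled NNMT knockdown and for SPDEF in control libraries. With 3 libraries a group, an exact permutation test of one gene cannot give a p below 0.1.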
